A study of Mus musculus with 2 samples.

Results

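The genes described here encode the mitochondrial carriers (Slc25a) and the subunits of the translocases that bring proteins into mitochondria (Tomm for the outer membrane, Timm for the inner membrane and the space between the membranes). They were taken by name: every protein-coding gene of the count table whose GENCODE M21 symbol begins with Slc25a, Timm or Tomm. This gave 73 of 21903 protein-coding genes, made up of 47 Slc25a, 16 Timm and 10 Tomm genes. Names are not functions: Timmdc1 is an assembly factor of respiratory complex I, Tomm34 is a cytosolic co-chaperone, Slc25a17 serves peroxisomes and Slc25a46 sits in the outer membrane.

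RNA was sequenced from sorted small peritoneal macrophages, a monocyte-related macrophage of the abdominal cavity, of male SWISS mice aged 5 weeks, an outbred stock. All mice received 20 mg/kg lipopolysaccharide (LPS) from Escherichia coli into the peritoneum, then 30 mL/kg saline under the skin 6 h later, and were killed 22 h after LPS. One group had LPS alone. The other, LPS+LCC-12, was also given an intraperitoneal dose of 0.3 mg/kg LCC-12, a copper-binding compound that acts in mitochondria, at the 6 h time point. Each group was 1 library from pooled sorted cells, 102283 cells of 7 mice for LPS and 66967 cells of 8 mice for LPS+LCC-12, and no mice without LPS were analysed here. With 1 library per group no difference could be tested against variation between mice, and every interval below is a 95% interval for counting error alone. Pairs of counts are given in the order LPS, then LPS+LCC-12.

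Carriers are small proteins of the inner membrane that exchange nucleotides, phosphate, carboxylates, amino acids, cofactors and metals between cytosol and matrix. Nearly all mitochondrial proteins, the carriers included, are made in the cytosol and enter through the TOM pore. From there TIM23 takes precursors with a cleavable presequence, with an import motor at its matrix side, while small TIM chaperones escort carriers to TIM22 for insertion into the inner membrane. In macrophages activated by LPS, carriers are known for the export of citrate and the supply of substrates to a rewired tricarboxylic acid cycle.

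The libraries held 50618409 counts for LPS and 47721888 for LPS+LCC-12, of which the 73 genes took 0.164% (exact binomial interval 0.163 to 0.165) and 0.178% (0.177 to 0.180). The sorted cells expressed the macrophage genes Csf1r, Lyz2 and Ctss and the small peritoneal macrophage markers Ccr2 and H2-Aa in both libraries, and Gata6, a marker of large peritoneal macrophages, with 529 and 720 counts. Markers of other cells moved between the libraries. The summed level of 12 neutrophil markers in CPM on TMM-scaled library totals was 9298 with LPS alone and 3514 once LCC-12 was given, with all 11 readable ones lower and Elane at 0 with LPS. Of 6 inflammatory monocyte markers all were lower (3761 and 1921 CPM), whereas the lists of small and of large peritoneal macrophages were higher in sum, at 1198 and 1647 CPM and at 1199 and 1911 CPM. In each of these macrophage lists 7 of 10 genes were at least 2-fold higher (beside 4.01% of all genes), with median log2 ratios of 2.02 and 1.31. The rest of the small list were Csf1r (0.56), Clec4a1 (0.04) and Ccr2 (-0.02). Those of the large list were Gata6 (0.49), Adgre1 (-0.02) and Selp (-0.24). The large peritoneal macrophage genes Cd5l, with 466 and 10022 counts, and Timd4, with 318 and 5056, were 22.2-fold and 16.4-fold higher. Mast cell, mesothelial, fibroblast and T cell markers summed to at most 15.2 CPM with LPS and 5.40 with LPS+LCC-12, with Lum at 0 in both libraries and Wt1 and Pdgfra at 0 with LPS+LCC-12. B cell markers summed to 71.2 and 88.4 CPM. Of 5 eosinophil markers, Epx and Prg2 were at 0 in both libraries, and Ear6 had 1 and 0 counts. Ccr3 had 33 and 35 counts. Siglecf, the 1 eosinophil marker that reached 50 counts, had 32 and 57 (log2 ratio 0.87, 0.23 to 1.55). Fewer cells of a type and less RNA per cell cannot be told apart in such bulk libraries, and the part of these marker differences in the ratios below was not tested.

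The carrier and import genes differed little between the libraries. Of the 73 genes, 60 reached 50 counts in at least 1 library and were read (37 Slc25a, 15 Timm and 8 Tomm). Of these 60, 59 were within 2-fold, beside 10292 of 11220 protein-coding genes. None was at least 2-fold higher with LCC-12, beside a background of 3.81% of 11220 protein-coding genes and 4.01% of all 13482 genes read the same way. Slc25a2 alone was at least 2-fold lower, which is 1.67% of the 60, beside 4.46% of protein-coding genes and 6.65% of all genes. At a limit of 1.5-fold, 3 of the 60 were higher (Slc25a15, Slc25a10 and Slc25a45) and 2 were lower (Slc25a2 and Slc25a20). These are 5.00% and 3.33%, beside 9.35% and 9.85% of protein-coding genes.

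On the log2 scale of LPS+LCC-12 over LPS, the median ratio of the 60 genes was 0.06, and that of protein-coding genes was 0.05. Ratios were above 0 for 35 of the 60 genes (58.3%, background 55.7%). With TMM scaling the whole counting interval lay above 0 for 24 (40.0%, background 39.9%) and below 0 for 12 (20.0%, background 31.2%). By family the medians were 0.07 for Slc25a, 0.09 for Timm and -0.13 for Tomm, each smaller than the spread among its own members. Among the 27 genes with a mean of at least 1000 counts, 19 had ratios above 0 (70.4%, beside 53.9% of 6135 protein-coding genes at that level). Among the other 33 it was 16 (48.5%, beside 57.8% of 5085).

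**Figure D1:**
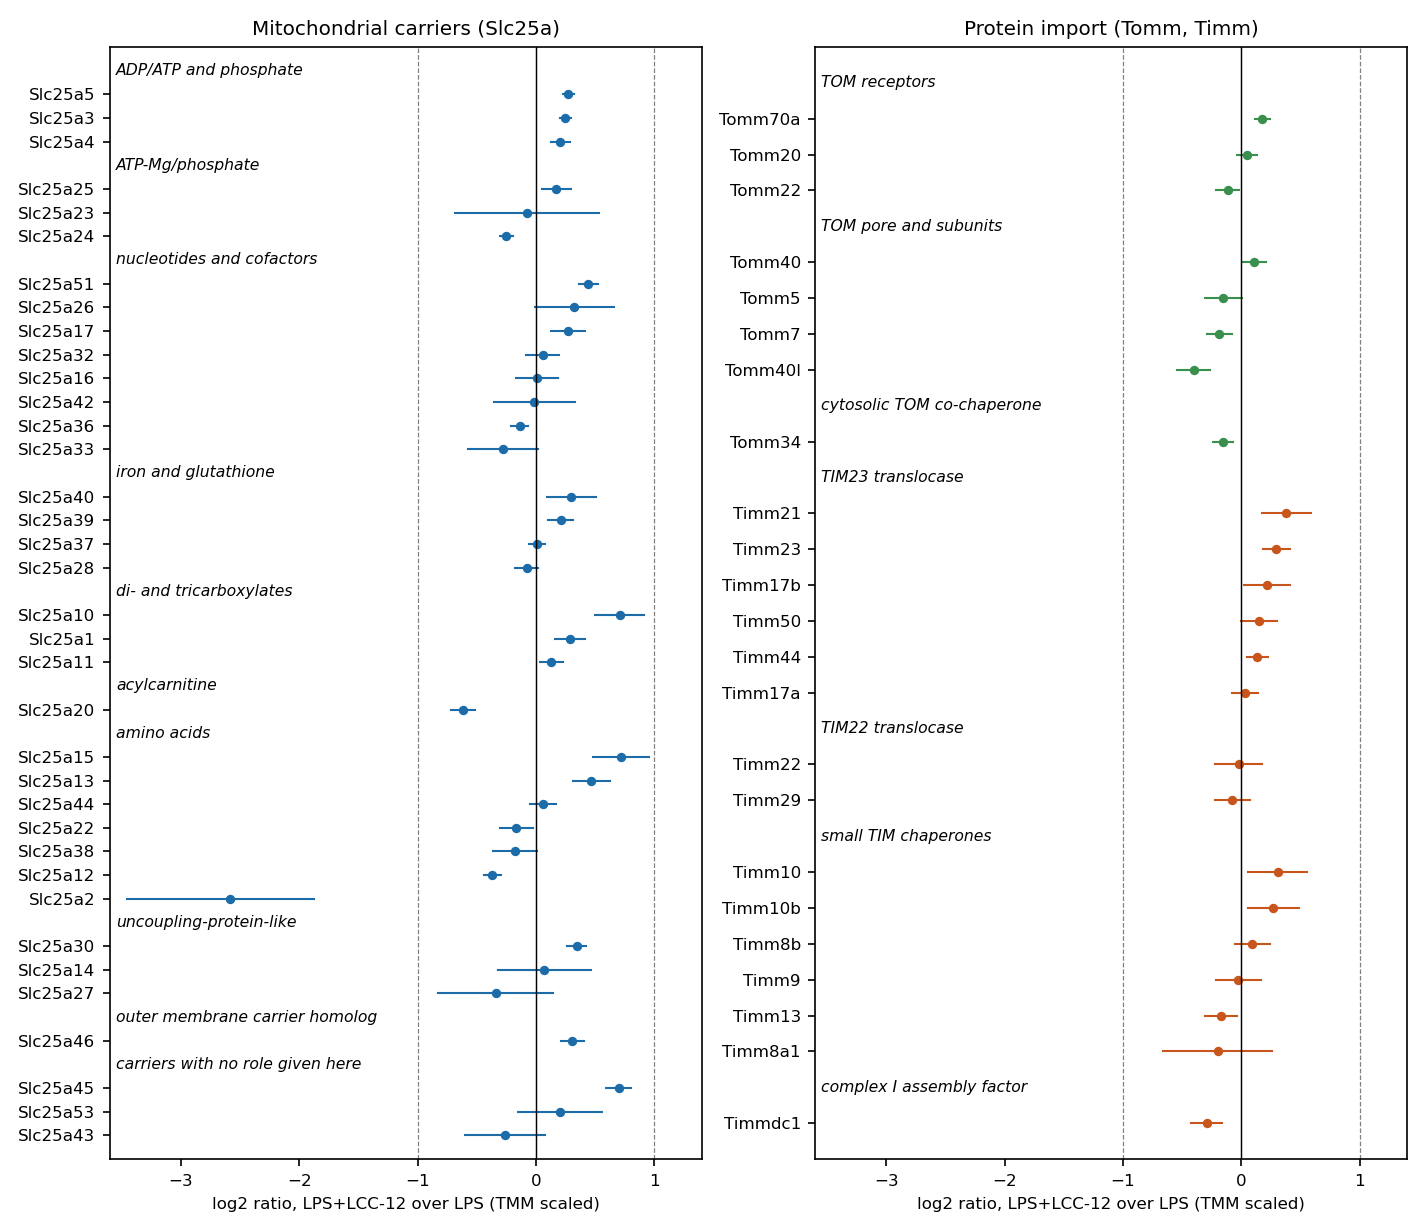
Log2 ratio of LPS+LCC-12 over LPS for 59 of the 60 genes with 50 or more counts, carriers on the left and import genes on the right, grouped by role; points are ratios, bars are 95% counting intervals and dashed lines mark 2-fold. Slc25a2 is the single gene past the 2-fold line, and all 6 Timm genes of TIM23 lie to the right of 0.

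The promoter sequences of the 4 genes past 1.5-fold other than Slc25a2, which is not shown, are given for reference, with that of Slc25a3, the phosphate and copper carrier. They come from RefSeq on GRCm38.p6, which held a window for 59 of the 73 genes. Each run is the strand of the gene, 5′ to 3′, from 250 bases before the RefSeq start to the start or to the first exon base of the gene in GENCODE. Capitals mark matches on either strand to the letters of 7 motifs, none of which overlap in these windows. For ETS the letters were CCGGAAG. For SP/KLF factors they were GGGCGG. For the E-box they were CACGTG. A CRE was searched as TGACGTCA, and CCAAT is its own name. The NRF1 letters are those in capitals in Slc25a3 with any base allowed at the fifth position, and ISRE-like letters are a GAAA repeat with a free spacer of 2 bases, seen on the other strand in Slc25a15. The windows are chr9:108661886-108662087 (+) for Slc25a20, chr19:5877572-5877807 (+) for Slc25a45, chr11:120491587-120491836 (+) for Slc25a10, chr8:22398622-22398871 (-) for Slc25a15, at the upstream one of its RefSeq starts, and chr10:91124060-91124217 (-) for Slc25a3.
Slc25a20: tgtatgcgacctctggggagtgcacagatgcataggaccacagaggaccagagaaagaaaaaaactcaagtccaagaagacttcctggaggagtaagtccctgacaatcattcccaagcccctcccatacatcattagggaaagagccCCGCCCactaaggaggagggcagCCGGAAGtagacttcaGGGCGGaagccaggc
Slc25a45: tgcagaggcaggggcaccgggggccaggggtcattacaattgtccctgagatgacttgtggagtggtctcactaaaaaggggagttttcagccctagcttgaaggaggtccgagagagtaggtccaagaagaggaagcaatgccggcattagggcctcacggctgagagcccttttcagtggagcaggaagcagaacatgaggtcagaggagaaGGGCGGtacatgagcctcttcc
Slc25a10: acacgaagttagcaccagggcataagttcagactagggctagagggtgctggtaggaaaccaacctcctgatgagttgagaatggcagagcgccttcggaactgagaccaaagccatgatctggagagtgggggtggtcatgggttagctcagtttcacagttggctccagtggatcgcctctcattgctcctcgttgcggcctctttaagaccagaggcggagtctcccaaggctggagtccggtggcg
Slc25a15: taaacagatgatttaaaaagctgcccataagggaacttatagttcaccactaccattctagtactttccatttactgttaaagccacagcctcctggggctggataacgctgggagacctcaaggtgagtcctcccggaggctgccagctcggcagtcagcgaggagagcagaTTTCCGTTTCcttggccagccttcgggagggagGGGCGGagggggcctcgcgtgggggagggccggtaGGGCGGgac
Slc25a3: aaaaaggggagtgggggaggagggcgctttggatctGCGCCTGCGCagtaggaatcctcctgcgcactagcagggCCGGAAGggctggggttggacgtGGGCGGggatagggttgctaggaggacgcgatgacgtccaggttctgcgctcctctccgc
Slc25a3 carries NRF1, ETS and SP/KLF letters, Slc25a20 ETS and SP/KLF, Slc25a15 SP/KLF and ISRE-like, Slc25a45 SP/KLF, and the Slc25a10 window none of the 7.

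The counts that follow are over the full 250 bases and take all RefSeq windows of a gene together. ETS letters were in 13 of 48 read genes with a window (27.1%, beside 16.8% of 8941 protein-coding genes with 50 or more counts). Of these 13 genes 7 had ratios above 0, and the ratios ran from -0.61 (Slc25a20) to 0.31 (Timm10). E-box letters were in 9 of 48 (18.8%, beside 10.1%), and 5 of the 9 ratios were above 0. Slc25a15 is among the 9 through a RefSeq window that is not printed. NRF1 letters were in 2, Slc25a3 and Tomm20 (4.17%, beside 9.84%), and ISRE-like letters in 3, Slc25a15, Slc25a22 and Tomm70a (6.25%, beside 3.48%). SP/KLF letters were in 66.7% of the read genes (background 63.7%), CCAAT in 39.6% (40.8%) and CRE in 4.17% (3.12%). Genes that shared letters therefore lay on both sides of 0 for ETS, E-box and ISRE-like alike, and these matches are descriptions of the sequence only.

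The ADP/ATP and phosphate carriers, which supply oxidative phosphorylation, included the most abundant of the 73 genes. All 3 readable ones were slightly higher with LCC-12, beside 55.7% of protein-coding genes with ratios above 0. Slc25a5, the main ADP/ATP carrier of growing and immune cells, had 7874 and 9227 counts (log2 ratio 0.27, 0.23 to 0.32). Its per-length level, as RPKM (CPM per kilobase of merged exons), was 95.8 and 116, the highest of all 73 genes. Slc25a4, the ADP/ATP carrier known from heart and muscle, had 2195 and 2453 counts (0.21, 0.12 to 0.29). Slc25a3, which carries phosphate and is also known to bring copper into the matrix for cytochrome c oxidase, had 7105 and 8166 counts (0.25, 0.20 to 0.29). The testis form Slc25a31 had 0 counts in both libraries, which allows up to 0.0601 CPM with LPS and 0.0620 with LPS+LCC-12. These genes summed to 17174 and 19846 counts (0.25, 0.23 to 0.28). Processed pseudogenes nearly identical to Slc25a5 had at most 14 counts.

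The ATP-Mg/phosphate carriers, which are regulated by calcium and set the adenine nucleotide content of the matrix, went the other way in sum. Slc25a24, with the second highest per-length level of the 73 genes with LPS (30.6 RPKM), had 5240 and 4269 counts (-0.25, -0.31 to -0.19). Slc25a25 had 1035 and 1128 counts (0.17, 0.05 to 0.29). Slc25a23 had 50 and 46 counts and an interval that holds 0, and Slc25a41 had 2 and 0 counts. In both libraries Slc25a24 held most of the counts of this role, and its lower count set the sum, which was 6327 and 5443.

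Carriers of nucleotides and cofactors were spread around 0, with a median of 0.01 over 9 genes. Slc25a51, the mitochondrial NAD transporter, had 2258 and 2969 counts (0.44, 0.36 to 0.52), the highest ratio of this role. Slc25a17, the peroxisomal carrier of coenzyme A and other cofactors, had 766 and 894 counts (0.27, 0.13 to 0.41). Slc25a36, which carries pyrimidine nucleotides, had 3351 and 2954 counts (-0.14, -0.21 to -0.06). Intervals that held 0 included those of Slc25a16, Slc25a26 (S-adenosylmethionine), Slc25a32 (folate and FAD), Slc25a33 (pyrimidine nucleotides) and Slc25a42 (coenzyme A), with ratios from -0.28 to 0.32.

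The mitoferrins, which bring iron into the matrix for heme and iron-sulfur clusters, had counting intervals that held 0 with TMM scaling. Slc25a37 (mitoferrin 1) had 3673 and 3581 counts (0.01, -0.06 to 0.08), and Slc25a28 (mitoferrin 2) had 1828 and 1676 (-0.08, -0.18 to 0.02). The Slc25a28 ratio was -0.10 with DESeq2 scaling and -0.11 with upper-quartile scaling, a shift larger than the margin by which its interval held 0. The mitochondrial glutathione importer Slc25a39 had 1331 and 1490 counts (0.21, 0.10 to 0.32), and its relative Slc25a40 had 354 and 422 (0.30, 0.09 to 0.51). Both glutathione carrier genes were thus slightly higher, beside 55.7% of protein-coding genes with ratios above 0. The sign of Slc25a37 changed with the scaling.

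All 3 readable carriers of di- and tricarboxylates were higher with LCC-12, beside 55.7% of protein-coding genes with ratios above 0. Slc25a10, the dicarboxylate carrier that exchanges malate or succinate for phosphate (chromosome 11, 120491840 to 120499187, GRCm38), had 320 and 506 counts (0.71, 0.50 to 0.91). Slc25a1, the citrate carrier, which feeds cytosolic acetyl-CoA, had 927 and 1098 counts (0.29, 0.16 to 0.42). Slc25a11, the oxoglutarate-malate carrier, had 1713 and 1815 (0.13, 0.03 to 0.23), and 8.9% of its exon bases overlap Rnf167 on the opposite strand. The oxodicarboxylate carrier Slc25a21 had 0 and 3 counts. Their summed counts were 2960 and 3422 (0.26, 0.18 to 0.33).

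Slc25a20 was the lowest of the members with a mean of at least 1000 counts. It encodes the carnitine-acylcarnitine carrier, which admits long-chain fatty acids for oxidation in the matrix (chromosome 9, 108662088 to 108684641). It had 1971 and 1247 counts, a level 1.53-fold lower with LCC-12 (log2 ratio -0.61, -0.72 to -0.51), and its per-length level was 8.15 and 5.32 RPKM. Of the adjacent genes, Prkar2a was higher, with 2652 and 3364 counts (0.39, 0.32 to 0.46). The interval of Arih2, with 4723 and 4588 counts, held 0 (0.0043, -0.05 to 0.06). A stretch of 366 bases of Slc25a20 transcripts is nearly identical to stretches in many noncoding genes, none of which had more than 8 counts, and in Tmem72, with 9 and 6. A shorter one of 227 bases is shared with Tnfrsf22, which had 238 and 204.

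Amino acid carriers included the extremes in both directions. Slc25a15, the ornithine carrier of the urea cycle (chromosome 8, 22375551 to 22398597), had 242 and 386 counts (0.72, 0.48 to 0.96), the highest ratio of the 60 genes. Slc25a2, a second ornithine carrier gene with 1 exon (chromosome 18, 37637377 to 37638745), had 108 and 17 counts, a 6.01-fold difference (-2.59, -3.45 to -1.88). Its level was low in both libraries, 1.58 and 0.257 RPKM. Taf7, the next gene upstream on its strand at a gap of 1746 bases, had 2024 and 1226 counts (-0.68, -0.78 to -0.57). Whether reads running past Taf7 were counted in Slc25a2 was not tested. Noncoding genes, also mostly weakly expressed, were more often lower than higher in the same library. Of 312 lincRNA genes 88 were at least 2-fold lower (28.2%) and 18 higher (5.77%). Of 269 antisense genes 78 were lower (29.0%) and 13 higher (4.83%), beside 6.65% and 4.01% of all genes. Summed lincRNA counts were higher, at 2991354 and 3298455 (0.19, 0.18 to 0.19). Of 5085 read protein-coding genes with a mean under 1000 counts, 6.39% were lower and 6.29% higher. The part of noncoding genes in the Slc25a2 count was not tested.

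The aspartate-glutamate carriers, which work in the malate-aspartate shuttle for NADH, moved in opposite directions. Slc25a12 (aralar) had 3331 and 2500 counts (-0.37, -0.44 to -0.29), and Slc25a13 (citrin) had 584 and 783 (0.47, 0.31 to 0.63). A stretch of 247 bases of Slc25a12 transcripts is 99.6% identical to one in Adpgk, which had 1624 and 1590 counts. Its part in the Slc25a12 count was not tested. Slc25a13 counts were 0.175 of those of Slc25a12 with LPS alone and 0.313 of them when LCC-12 was added. Among the other amino acid carriers, the glutamate carrier gene Slc25a22 had 905 and 781 counts (-0.17, -0.31 to -0.03). The intervals of Slc25a38 (glycine, for heme synthesis) and Slc25a44 (branched-chain amino acids) held 0, at -0.17 and 0.06. Slc25a18 and Slc25a29 had at most 15 counts.

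Among the remaining carriers, Slc25a45 was higher, with 1138 and 1788 counts (0.70, 0.59 to 0.81; chromosome 19, 5877808 to 5885878). Its neighbour on the opposite strand, Frmd8, had 2351 and 2473 counts (0.12, 0.04 to 0.20). Slc25a30, a relative of the uncoupling proteins, had 2408 and 2961 counts (0.34, 0.27 to 0.42), while the intervals of the relatives Slc25a14 and Slc25a27 held 0. Slc25a46, an outer membrane protein that shapes mitochondria, had 1581 and 1895 counts (0.31, 0.21 to 0.40). Slc25a43 and Slc25a53 had at most 168 counts and intervals that hold 0. Below the minimum, Slc25a35 had 48 and 34 counts, Slc25a47 46 and 22, and Slc25a34 13 and 0. Slc25a48 and Slc25a54 had 0 in both libraries.

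**Figure D2:**
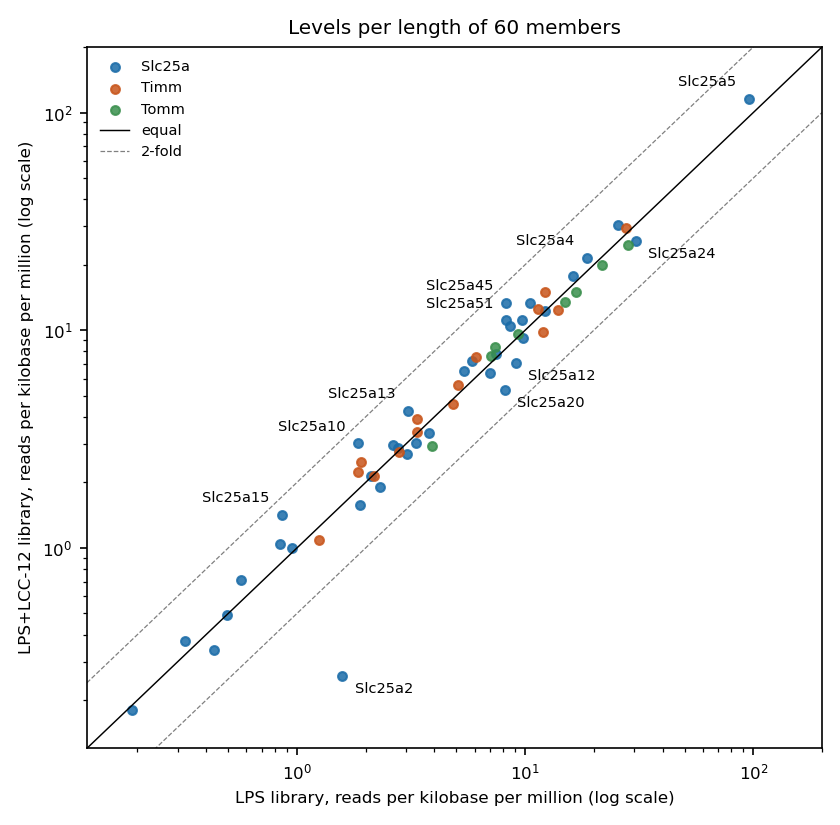
Per-length level (RPKM on merged exons and TMM-scaled totals, both axes logarithmic) of the 60 read genes in the LPS library against the LPS+LCC-12 library, coloured by family. The points follow the line of equality over a wide range of levels, with Slc25a5 at the top (95.8 and 116) and Slc25a2 alone beyond the 2-fold line (1.58 and 0.257).

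At the entry gate, the receptors and pore subunits of TOM differed by less than 1.5-fold and in mixed directions. Tomm70a, the receptor for carriers and other precursors with internal signals, had 3613 and 3959 counts (0.18, 0.11 to 0.24). Tomm20, the receptor for presequences, had 2278 counts in each library (0.05, -0.04 to 0.13). Tomm22, the central receptor, had 1784 and 1595 (-0.12, -0.21 to -0.02). The pore-forming Tomm40 had 1593 and 1659 counts (0.10, 0.0046 to 0.20), and its homolog Tomm40l had 1001 and 733 (-0.40, -0.54 to -0.26). Of the small subunits, Tomm7 had 1581 and 1345 counts (-0.19, -0.29 to -0.08) and Tomm5 721 and 628 (-0.15, -0.31 to 0.0032). The co-chaperone Tomm34 had 2273 and 1977 (-0.16, -0.24 to -0.07). Tomm40l shares 64.3% of its exon bases with Nr1i3 on the opposite strand, which had 15 and 0 counts.

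Tomm6, a small TOM subunit, was listed at 0 in both libraries, unlike Tomm5 and Tomm7. In the annotation 76.0% of its exon bases (chromosome 17, 47686646 to 47688386) are shared with Gm21981 on the same strand, which was also at 0. The antisense gene Tomm6os, which shares 219 of those bases, had 98 and 57 counts. The zero is therefore a value of the table and was not read as an absence of Tomm6 RNA; the handling of reads shared between genes is not stated. Tomm20l, the homolog of Tomm20, had 6 and 3 counts.

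All 6 Timm genes of the TIM23 translocase had ratios above 0, and 4 of the 6 intervals lay above 0 (beside 55.7% and 39.9% of protein-coding genes). Import partners with other names are outside this count. Of those 31, ratios were above 0 for 23, among them Hspa9 (0.10, 0.06 to 0.14). They were below 0 for 8, among them Grpel1 (-0.17, -0.26 to -0.08). Timm21, a subunit that links TIM23 to TOM and to respiratory complexes, had 353 and 445 counts (0.38, 0.18 to 0.59). Timm23, the channel, had 1089 and 1296 (0.30, 0.18 to 0.41), and Timm17b, its partner, had 430 and 484 (0.22, 0.03 to 0.41). Timm44, which tethers the import motor, had 2081 and 2215 (0.14, 0.05 to 0.22). The intervals of Timm50, the presequence receptor, with 679 and 729 counts (0.15, -0.0042 to 0.30), and of Timm17a, with 1318 and 1306 (0.03, -0.08 to 0.14), held 0. The 6 summed to 5950 and 6475 counts (0.17, 0.12 to 0.22). Timm23 has near-identical processed pseudogenes and the gene Gm10273, none of which had more than 3 counts. Timm17a turned below 0 with upper-quartile scaling, so 5 of the 6 ratios were above 0 with that setting. The count of intervals was made with TMM scaling alone. The median gene shifted by -0.034 with upper-quartile scaling and by 0.039 with total counts, beside lower bounds of 0.026 for Timm17b and -0.0042 for Timm50.

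TIM22, the carrier translocase, and its chaperones were close to equal. Timm22, its channel, had 444 and 423 counts (-0.02, -0.22 to 0.17), with a sign that changed with the scaling, and Timm29 had 763 and 701 (-0.08, -0.23 to 0.07). The small TIM chaperones work as hexamers of Timm9 with Timm10 or of Timm8 with Timm13. Timm9 had 465 and 442 counts (-0.03, -0.22 to 0.16), Timm10 had 247 and 296 (0.31, 0.06 to 0.56) and Timm10b 332 and 388 (0.27, 0.06 to 0.49). Timm8b had 713 and 737 (0.09, -0.06 to 0.24) and Timm13 958 and 823 (-0.17, -0.31 to -0.04). Timm8a1 had 89 and 75 counts with an interval that holds 0, and Timm8a2 had 4 and 6. The summed log2 ratio of the chaperones was 0.02 (-0.05 to 0.10). Timmdc1, which shares only the name, had 1070 and 846 counts (-0.29, -0.42 to -0.16), the lowest ratio among the genes named Timm.

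Ratios between related genes within a library do not depend on how the libraries are scaled, and 10 pairs were compared; the pairs were chosen after the values were seen. The ratio of Slc25a13 to Slc25a12 was 1.79 times as high with LCC-12 (interval 1.58 to 2.02), and that of Tomm40 to Tomm40l was 1.42 times as high (1.26 to 1.60). The ratio of Slc25a25 to Slc25a24 was 1.34 times as high (1.22 to 1.47). The ratio of Slc25a15 to Slc25a2 was 10.1 times as high (5.85 to 18.4), with 17 counts as its smallest entry. For the other 6 pairs the interval held 1. Slc25a5 to Slc25a4, for example, was 3.59 and 3.76, which is 1.05 times as high (0.982 to 1.12), and Slc25a37 to Slc25a28 was 1.06 times as high (0.980 to 1.15).

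**Figure D3:**
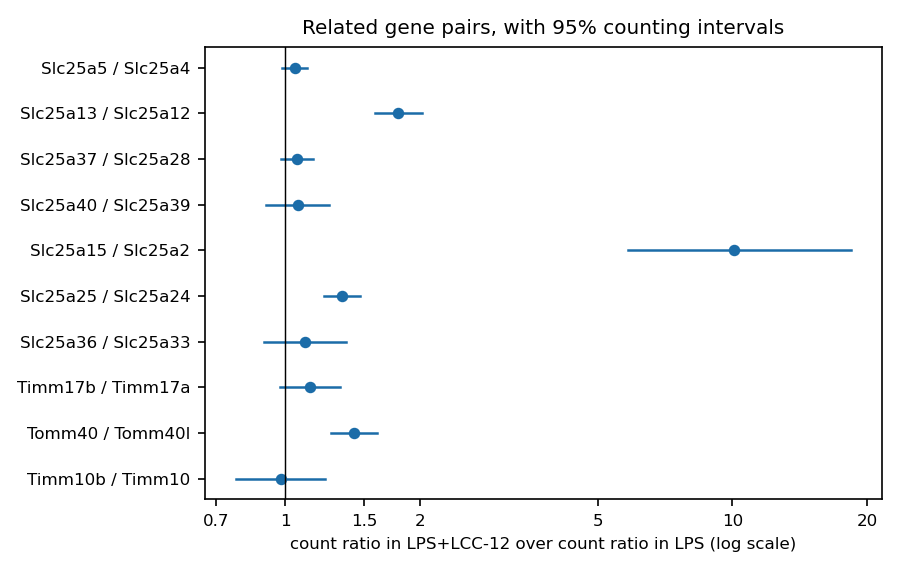
Change in the count ratio of 10 pairs of related genes, as the ratio in the LPS+LCC-12 library divided by that in the LPS library (logarithmic axis); points are odds ratios, bars 95% counting intervals and the line marks no change. The pairs Slc25a13/Slc25a12, Slc25a15/Slc25a2, Slc25a25/Slc25a24 and Tomm40/Tomm40l lie to the right of 1, and the other 6 intervals hold 1.

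Most partners of import outside these families had ratios slightly above 0. Timm and Tomm genes together had 12 above (52.2%, background 55.7%) and 11 below. Of 31 such partners, all read, none was past 2-fold, beside 3.81% of protein-coding genes higher and 4.46% lower. The median log2 ratio was 0.16, beside 0.05 for protein-coding genes. Ratios were above 0 for 23 of the 31 (74.2%, background 55.7%) and intervals above 0 for 18 (58.1%, background 39.9%). Hspa8, a cytosolic chaperone that delivers precursors to Tomm70, had 31973 and 52124 counts (0.75, 0.73 to 0.77), and Hsp90aa1, its partner there, had 34295 and 31675 (-0.07, -0.09 to -0.05).

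**Figure D4:**
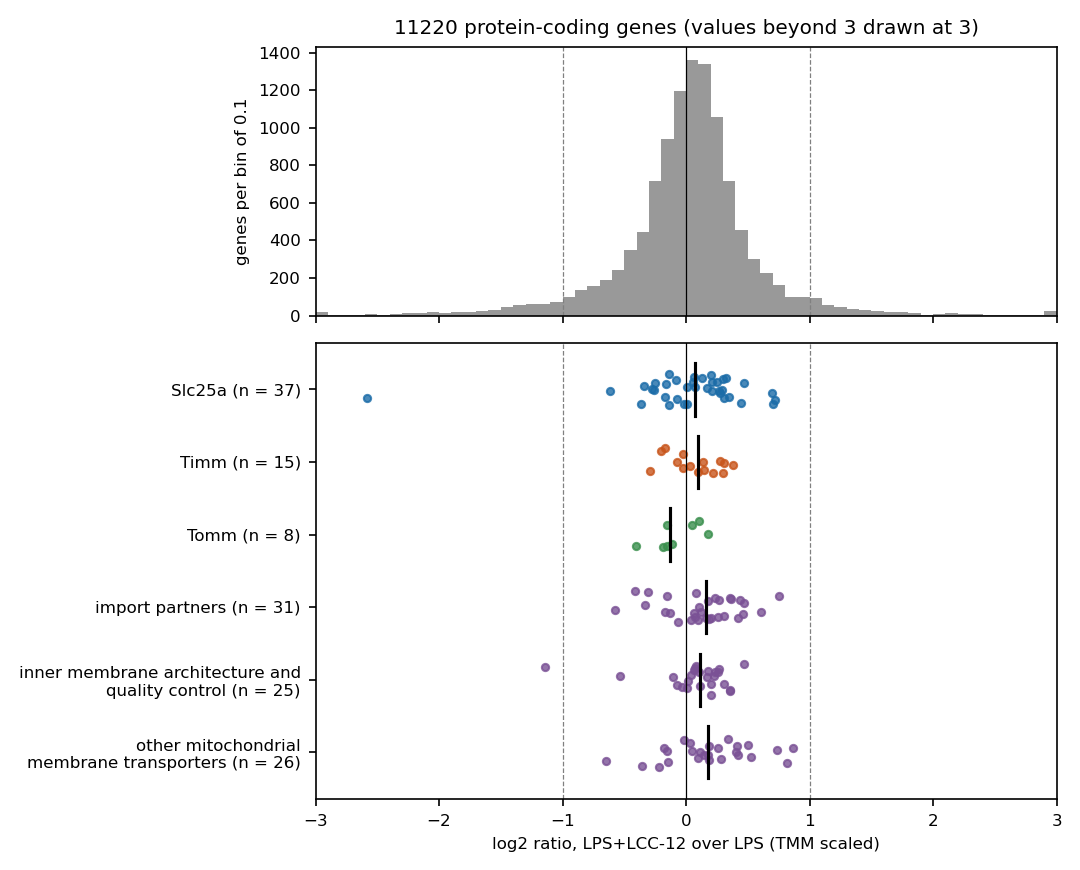
Distribution of log2 ratios of LPS+LCC-12 over LPS for 11220 protein-coding genes (top, genes per bin) and, below, one point per gene for the families and the related lists, with the median as a black bar and dashed lines at 2-fold; vertical jitter has no meaning. The family medians (0.07, 0.09 and -0.13) lie within the central peak of the background, and Slc25a2 is the outermost point.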

How the data were processed

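The deposited table holds raw counts per gene, whole numbers that the authors did not normalize, with 1 column per library; the library codes of the columns match the labels. Per the labels' protocols, total RNA was made into stranded libraries with ribosomal depletion. Per the submitters' processing notes, STAR and mm10 were used. Which counter and gene models were used, and whether strand was, is not given in the sources used here, so overlapping genes are uncertain. IDs were matched to GENCODE M21 (GRCm38): 55394 of 55487 matched. TMM scaling came from edgeR 4.0.16 (R 4.3.3). The log2 ratio has 0.5 added counts. A gene was read if either library held at least 50 counts. Intervals are exact Clopper-Pearson intervals (95%) of the split of counts, and for gene pairs exact conditional odds ratio intervals (SciPy 1.17.1). They cover counting error only, and can be too narrow even for that, since PCR copies are not independent molecules. The script was tested on simulated data. Levels per length use the merged exon length. Overlaps come from the annotation, and near-identical stretches (95% over 200 bases) from BLAST 2.17.0.

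With 1 library per group no test was run. The genes named in full were those past 2-fold, the 12 furthest from 0 in each direction by the interval bound nearest 0, and 28 fixed genes; the others are given more briefly, and some results are not reported here. The members and lists were chosen with earlier results of these data known. The alternatives were DESeq2 1.42.0 and 3 other scalings, other count minimums, added counts, size limits and means.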

Additional observations from a re-analysis of the deposited data

How the results depend on the processing

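With 1 library per group and 50618409 and 47721888 counts, no value has a replicate check, and depth limits the thinly counted genes most. Over all settings the median log2 ratio ran from 0.03 to 0.17 for Slc25a, from 0.06 to 0.15 for Timm and from -0.17 to -0.07 for Tomm, means included. No median changed sign, but single ratios close to 0 did under other scalings: Slc25a16, Slc25a37, Slc25a42, Timm9, Timm17a and Timm22. Intervals are given with TMM scaling alone. Scaling to totals without the 100 most abundant genes and the mitochondrial genome genes moved 3 ratios beyond their intervals. With the other scalings 0 moved that far. Between 32 and 38 of the 60 ratios were above 0 over the scalings. The counts past 2-fold (0 higher and 1 lower) depended on the minimum. With a minimum of 10 counts 3 genes were lower, with 200 counts 0 were lower, and with 1 count 4 were lower and 1 was higher, because thinly counted genes entered or Slc25a2 left. With a 1.5-fold limit 3 genes were higher and 2 lower. In the related lists 1 gene was past 2-fold, and 3 were with a minimum of 10 or of 1 count. Leaving out genes that share exon bases with another gene, chosen after seeing the data, kept both counts. No paired analysis was possible because each group has 1 library.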

Other observations

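Among 29 other transporters of the mitochondrial membranes, 26 were read, none past 2-fold, with a median log2 ratio of 0.18 (protein-coding genes 0.05) and 19 above 0 (73.1%, beside 55.7%). Of protein-coding genes 3.81% were at least 2-fold higher and 4.46% lower. The higher ones included genes of calcium uptake: Mcub, a pore subunit that dampens the uniporter, had 2256 and 3860 counts (0.82, 0.75 to 0.90), and Micu3, a uniporter regulator, 92 and 163 (0.87, 0.49 to 1.26). Sfxn5, a sideroflexin, was lower with 2767 and 1709 (-0.65, -0.74 to -0.56). The most counted were Ucp2, an uncoupling protein family member of immune cells, with 29582 and 30710 counts (0.10, 0.08 to 0.12), and the porin gene Vdac2 with 5224 and 6411 (0.34, 0.29 to 0.39). Mcub, Micu3 and Sfxn5 were named after their values were seen.

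Of 25 genes for inner membrane architecture and quality control, 20 had ratios above 0 (80.0%, beside 55.7% of protein-coding genes) and the median was 0.11 (0.05). Chchd10 was the 1 gene past 2-fold (4.00% lower, beside 4.46%), with 206 and 90 counts, 2.21-fold lower (-1.14, -1.52 to -0.78). The most counted over both libraries together were Immt, the organizer of the cristae junctions, with 5271 and 6330 counts (0.31, 0.26 to 0.36), and the protease gene Afg3l2 with 4780 and 6407 (0.47, 0.41 to 0.52). The gene lists were not tested against other genes.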
